A study of Mus musculus with 4 samples.

Results

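Processed pseudogenes are copies of spliced messenger RNAs that were reverse-transcribed and inserted back into the genome. They lack the introns of the parent gene, usually lack its promoter, and most often derive from abundant messages such as those of ribosomal proteins. Because a young copy is nearly identical to the spliced parent message, a short sequencing read from the parent can match both, and a count given to the copy need not come from its own transcription. The genes described here were the well-counted processed pseudogenes of the deposited table. They were the genes of that biotype with at least 200 raw counts in each of 4 libraries, after repeated lines of one gene were collapsed. Of 4979 processed pseudogenes among 40481 genes, 323 met the rule. They were chosen by these raw counts, so their high level is a description and not a finding.

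The libraries came from mouse CD49a+ ILC1s, or group 1 innate lymphoid cells, which reside in tissues, resemble natural killer cells and make interferon-gamma. The 2 libraries labelled knockout (KO 3 and KO 4) carried Ncr1-iCre, a Cre recombinase driven by a gene active in natural killer cells and ILC1s, with Inpp4b flox/flox. The 2 wild-type libraries (WT 1 and WT 2) carried Inpp4b flox/flox without Cre, so the floxed allele was shared by all 4. Inpp4b encodes a lipid phosphatase acting on phosphoinositides. The sources used here give no sex, age or number of animals per library, and liver was named as the tissue for WT 1 only. The labels do not say whether libraries of a group came from different animals. The p-values therefore reflect only how far these libraries differ, and that spread could be technical.

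The targeted transcript overlapped between the labels. It had 143 and 86.0 CPM (counts scaled to a common TMM-adjusted library size) in KO 3 and KO 4, against 78.7 and 107 CPM in WT 1 and WT 2. The Inpp4b log2 fold change was 0.30 ± 0.28 (SE, adjusted p = 0.828, edgeR quasi-likelihood test), so "knockout" below is the label of a library. Counts over whole genes may not see a deleted exon. The tables summed to between 42380840 and 54878210 counts per library. The summed level of 11 ILC1 markers lay between 11468 and 12676 CPM in all 4 libraries, but single markers in it differed. Ncr1 had 1202 and 1077 CPM in KO 3 and KO 4, against 1672 and 1772 CPM in WT 1 and WT 2. Cxcr6 went the other way, with 2384 and 2764 CPM, against 2213 and 2142 CPM. The summed level of 9 myeloid markers was 2344 and 2913 CPM in KO 3 and KO 4, against 397 and 510 CPM in WT 1 and WT 2. The summed level of 7 T cell markers was 2399 and 3282 CPM in KO 3 and KO 4, against 1983 and 1931 CPM in WT 1 and WT 2. Most of it was Cd3g, at 1623 and 1931 CPM against 1469 and 1255 CPM in the same order of libraries. Cd3e had 152 and 371 CPM, against 26.5 and 15.1 CPM. Only Trbc1 in this list went the other way, with 390 and 425 CPM, against 443 and 616 CPM. Erythroid markers summed to 187 and 676 CPM in KO 3 and KO 4, against 303 and 221 CPM in WT 1 and WT 2. B cell markers lay between 636 and 1033 CPM, nearly all from Ighm, and hepatocyte markers between 79.0 and 124 CPM. The part of these differences in the results below was not tested.

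The sequences show how little separates a copy from its message. Gm10736, the member of highest level, is annotated at chr13:111593534-111593611 (mm10, minus strand) and spans 78 bases. Over that length it is identical to the spliced coding part of Rpl41, a very short basic protein of the large ribosomal subunit encoded on chromosome 10. In the first pair, capitals mark the bases on either side of the exon junctions of Rpl41. In the other pairs capitals mark bases that differ. Gm10132, at chr14:77251847-77252314 (minus strand), is shown with Rpl23a, a large-subunit protein, because it was counted above its parent. Gm8355, at chr10:14745362-14747302 (minus strand), is shown with Hspa8, the constitutive heat shock cognate chaperone, because its counts and those of the parent were both lower in KO 3 than in KO 4. All are given 5′ to 3′ on the gene's own strand, from GENCODE M21 transcripts.
Gm10736: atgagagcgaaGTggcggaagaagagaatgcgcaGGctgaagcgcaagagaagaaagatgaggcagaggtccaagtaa
Rpl41: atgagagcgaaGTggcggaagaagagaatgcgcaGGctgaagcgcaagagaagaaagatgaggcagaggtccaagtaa
Gm10132: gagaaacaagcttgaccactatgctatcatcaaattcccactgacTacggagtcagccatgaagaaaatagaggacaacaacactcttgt
Rpl23a: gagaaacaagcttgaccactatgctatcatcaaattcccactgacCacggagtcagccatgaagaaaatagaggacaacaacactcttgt
Gm8355: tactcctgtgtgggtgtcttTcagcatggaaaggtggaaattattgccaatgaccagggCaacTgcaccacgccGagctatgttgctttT
Hspa8: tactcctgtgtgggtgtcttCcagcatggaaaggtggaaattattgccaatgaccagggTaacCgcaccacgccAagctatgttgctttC
Within the 90-base windows shown, Gm10132 differed from its parent at 1 base and Gm8355 at 5.

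A parent was assigned by alignment to protein-coding transcripts, at 80% identity or more over 50% or more of the pseudogene. It was found for 321 of 323 members and comprised 196 distinct genes. The median identity was 98.9%, the lowest was 90.1%, and 31 members were identical to the parent over their full length. Cytoplasmic ribosomal proteins were the parents of 160 members, from 66 genes, and these members took 67.1% of all counts on the members. Translation factors were the parents of 17 members, oxidative phosphorylation subunits of 14, chaperones and cyclophilins of 13, splicing and RNA-binding proteins of 8, chromatin and nuclear proteins of 6, and actins and tubulins of 3. The other 100 members had parents outside these families. Rps6, a small-subunit protein, had 6 members, and Eef1a1 (the elongation factor that delivers tRNA to the ribosome), Eif1, Rpl13, Rpl23a and Rps19 had 5 each. Members of one parent share sequence and are not independent observations.

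No parent was assigned under this alignment rule to Gm12250 and Rpl13-ps1, although the symbol of Rpl13-ps1 names Rpl13. Gm12250 was the only member in which every 50-base stretch was absent from all other annotated transcripts. RefSeq (GRCm38.p6) lists Gm12250 as a protein-coding gene with the synonym Irgb10, an interferon-inducible GTPase of host defence, so the biotype in the deposited table and in GENCODE differs from that annotation. It had 140 and 144 CPM in KO 3 and KO 4, against 105 and 123 CPM in WT 1 and WT 2. Both knockout-labelled values lay above both wild-type values, with a log2 fold change of 0.32 and an adjusted p of 0.58 (edgeR).

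Each member was cut into overlapping stretches of 50 bases and each stretch was looked up in all annotated transcripts on either strand. A genome sequence was not used here, so unannotated copies were not searched. The median member had 32.2% of its stretches in no other annotated transcript. A further 17.5% (median) lay in the parent transcript across an exon junction, and 35.5% (median) lay in the parent inside 1 exon. In 45 members no stretch was unique, and with stretches of 100 bases this held for 40 of the 320 members long enough. Those 45 members still had between 217 and 15664 counts in their lowest library. In 44 of them some stretches crossed a parent junction, which a spliced parent message also contains. How reads with several matches were counted is not given in the sources used here.

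**Figure D1:**
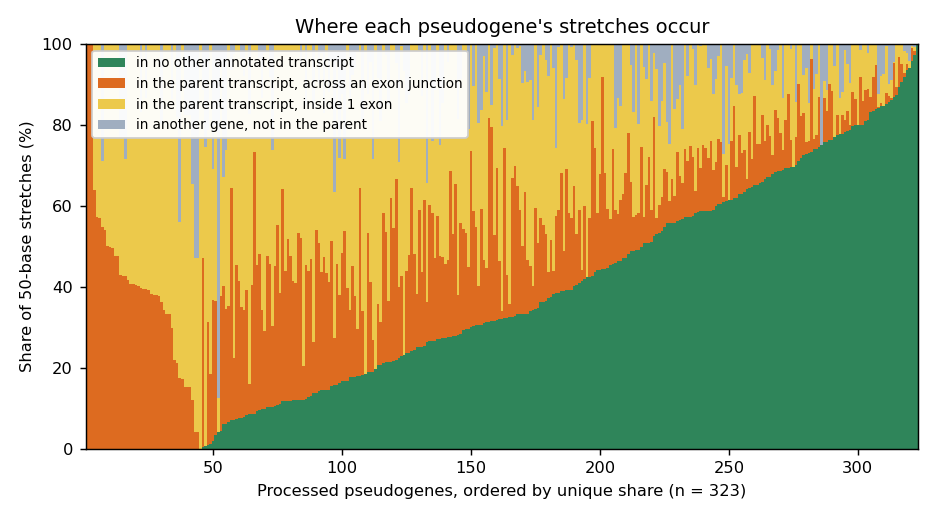
Share of 50-base stretches (percent, vertical axis) of each of the 323 processed pseudogenes (horizontal axis, ordered by unique share), by where else the stretch occurs. Green marks stretches in no other annotated transcript, and 45 members at the left have none.

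Among the highest levels were those of copies of ribosomal protein messages and of Eef1a1. Gm10736 had 435 and 469 CPM in KO 3 and KO 4, against 270 and 361 CPM in WT 1 and WT 2. Both knockout-labelled libraries were above both wild-type libraries. Gm13456, a copy of Eef1a1 on chromosome 2, had 416 and 294 CPM in KO 3 and KO 4, against 420 and 264 CPM in WT 1 and WT 2. Here the groups overlapped, and KO 3 and WT 1 were the high libraries. Gm11478, a copy of Rpl13a, had 356 and 274 CPM in KO 3 and KO 4, against 390 and 230 CPM in WT 1 and WT 2. It had the same pattern, and 57.3% of its stretches were unique. Gm9843, a copy of Fau (the small-subunit protein made as a ubiquitin-like fusion) with no unique stretch, had 316 and 254 CPM in KO 3 and KO 4, against 297 and 196 CPM in WT 1 and WT 2. Gm4149 (Rpl37a) and Rpl14-ps1 (Rpl14) averaged 261 and 226 CPM over the 4 libraries. The median member had 16.0 CPM, and 22 members exceeded 100 CPM.

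Among genes kept by their own counts, member level followed parent level only loosely. Parents were abundant: 284 members had a parent of at least 100 CPM, and 11 had one under 10 CPM. The median member had 4.55% of its parent's CPM. Across the 321 members, the level per kilobase of exon of member and parent had a Spearman correlation of 0.33 and a Pearson correlation of 0.33 on the log2 scale. These points share libraries, and some share a parent. The members were kept by their own counts, which cuts off low values. With a minimum of 100 counts the Spearman correlation was 0.40 (n = 492), and with 500 it was 0.23 (n = 184). The log2 ratio of member to parent per kilobase was related to identity (Spearman 0.53) and to the share of unique stretches (Spearman -0.47, n = 321). Copies closer to the parent in sequence had higher counts relative to it. The lowest ratios were those of Gm12328 (0.161% of Ubb, a polyubiquitin gene), Gm5822 (0.226% of Eef1a1) and Gm8326 (0.258% of Hspa8), in each of which over 50% of stretches were unique.

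**Figure D2:**
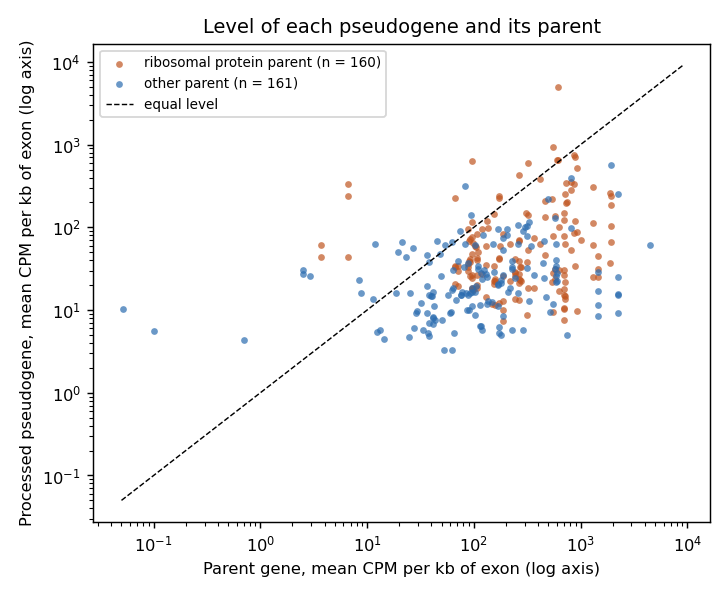
Mean level of each processed pseudogene (vertical) against its parent (horizontal), in CPM per kilobase of exon on log axes, with 160 members of ribosomal protein parents and 161 of other parents. Most points lie below the dashed line of equal level, and 39 members lie above it.

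Before correction for length, 12 members had more CPM than their parent. Gm10132 had 340 and 317 CPM in KO 3 and KO 4, against 258 and 260 CPM in WT 1 and WT 2. Its parent Rpl23a had 91.3 and 94.6 CPM in KO 3 and KO 4, against 61.3 and 75.4 CPM in WT 1 and WT 2. Both genes were higher in the knockout-labelled libraries without overlap, and no 50-base stretch of the Rpl23a coding sequence was unique to it. Gm12254 averaged 20.9 CPM, against 3.80 CPM for its parent Rpl24. Gm9385, another copy of Rpl24, had 32.0 and 22.4 CPM in KO 3 and KO 4, against 42.2 and 19.3 CPM in WT 1 and WT 2. Other members above their parent included Gm5830, Dynlt1-ps1, Gm6263, Gm13092, Gm10557 and Gm3272.

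Among 81 cytoplasmic ribosomal protein genes, all of them tested, the median level was 499 CPM, and 3 were under 100 CPM, Rpl24 and Rpl23a among them. None of the 81 passed an adjusted p of 0.05. At an unadjusted p under 0.05 there were 17 higher and 0 lower in the knockout-labelled libraries, against 4.48% and 5.17% of all genes tested. The log2 fold change was positive in 77 of the 81 (median 0.27), against 7238 of 14863 genes. Adding the counts of all processed copies to each parent moved its log2 ratio of knockout to wild type by more than 0.1 for 11 of 196 parents. For Rpl24 the value was -0.54 alone and -0.10 with its copies. For Rpl23a it was 0.44 alone and 0.24 with its copies. The sign changed for 5 parents.

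The clearest difference among members was between libraries of one group. On the log2(CPM + 0.5) scale, WT 1 exceeded WT 2 by a median of 0.57 and did so in 304 of 323 members, against 46.4% of all genes tested. KO 3 exceeded KO 4 by a median of 0.34 and did so in 287 members, against 50.3% of all genes. Both differences were positive in 278 members (86.1%), against 27.1% of all genes. For the 196 parents the same medians were -0.18 (WT 1 minus WT 2) and -0.08 (KO 3 minus KO 4), and over all genes tested they were -0.04 and 0.00. Both KO 3 and WT 1 lay above both KO 4 and WT 2 in 255 members (78.9%), against 18.7% of all genes tested. In the deposited column names KO 3 and WT 1 carry the number 1 within their group, and KO 4 and WT 2 the number 2. What that number stands for is not stated, and its part in the result was not tested. WT 1 was the highest library for 206 members (63.8%), against 23.4% of all genes.

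**Figure D3:**
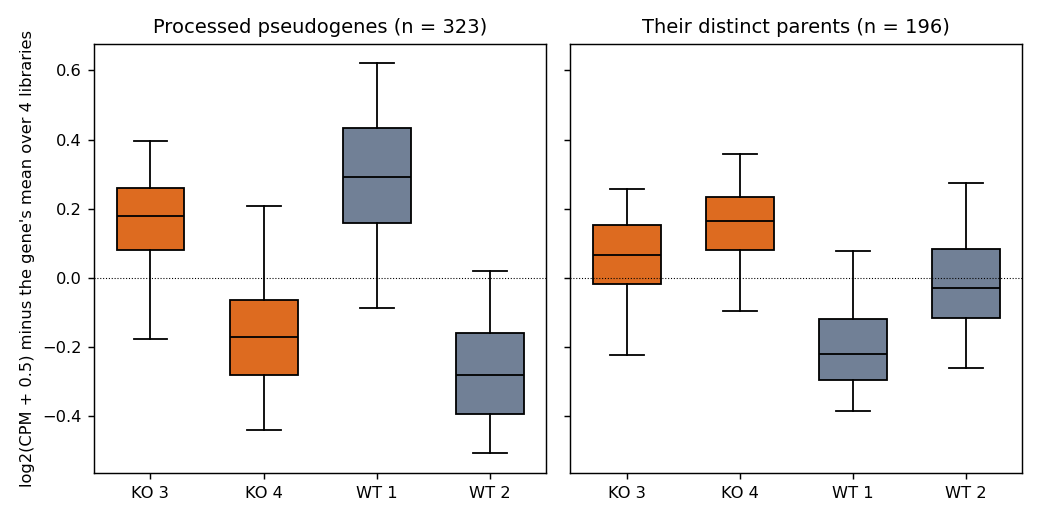
Log2(CPM + 0.5) of each gene minus its mean over the 4 libraries, for 323 processed pseudogenes (left) and their 196 parents (right), with knockout-labelled libraries in orange and wild-type libraries in grey. Boxes span the quartiles with the median, and whiskers the 5th to 95th percentile. Pseudogenes are high in KO 3 and WT 1, and their parents are not.

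The members took 1.28% and 0.963% of all counts in KO 3 and KO 4, against 1.39% and 0.889% in WT 1 and WT 2. Exact binomial 95% intervals, which cover counting error only, were narrow, for example 1.281 to 1.288% in KO 3. The means were 1.12 ± 0.227% in the knockout-labelled group and 1.14 ± 0.354% in the wild-type group (SD, n = 2 each). The difference of -0.0158 percentage points had p = 1 in a two-sided exact permutation test, in which 2 against 2 libraries cannot go below 0.333. Parents took 12.2% and 13.1% of counts in KO 3 and KO 4, against 10.8% and 11.8% in WT 1 and WT 2. There were thus 10.5 and 7.38 member counts per 100 parent counts in KO 3 and KO 4, against 12.9 and 7.54 in WT 1 and WT 2.

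Other processed copies had differences of the same sign. For 1191 other tested processed pseudogenes the median differences were 0.20 (KO 3 minus KO 4) and 0.36 (WT 1 minus WT 2). For 24 transcribed processed pseudogenes at member levels they were 0.35 and 0.52. For 17 unprocessed pseudogenes they were 0.03 and 0.08, for 60 lincRNAs 0.00 and -0.11, and for 159 single-exon protein-coding genes 0.05 and 0.07. Members with no unique stretch had medians of 0.36 and 0.57, and members with 50% or more unique stretches had 0.37 and 0.63. Members inside gene bodies had 0.37 and 0.53, and those outside 0.33 and 0.59. Of 3 library measures, the lincRNA share was higher in KO 3 and WT 1 than in KO 4 and WT 2. Genes detected went this way only within each group, and depth only between WT 1 and WT 2. LincRNAs took 1.39% and 1.05% of counts in KO 3 and KO 4, against 1.51% and 1.19% in WT 1 and WT 2. This share covers all lincRNAs, and the median differences of the 60 above did not go with it. Genes detected were 18731 and 18103 in KO 3 and KO 4, against 20629 and 18821 in WT 1 and WT 2. The libraries differed in depth, with 42380840 and 54125080 counts in KO 3 and KO 4, against 54878210 and 48491980 in WT 1 and WT 2. The part of these measures in the result was not tested.

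The largest single difference was that of Gm12338, a copy of Cox7c (a subunit of cytochrome c oxidase) with 100% identity to it. It had 22.8 and 13.6 CPM in KO 3 and KO 4, against 20.2 and 5.52 CPM in WT 1 and WT 2, while Cox7c had 140 and 173 CPM in KO 3 and KO 4, against 111 and 131 CPM in WT 1 and WT 2. WT 2 was the low library for the copy, and the parent did not share this. Gm15710, a copy of Rpl13, had 194 and 95.1 CPM in KO 3 and KO 4, against 251 and 107 CPM in WT 1 and WT 2. In Rpl13-ps1 and Gm4613 the WT 1 minus WT 2 difference was 1.25 and 1.24. Rpl21-ps15, a copy of Rpl21 on chromosome X, went the other way, with 31.6 and 65.3 CPM in KO 3 and KO 4, against 20.7 and 41.3 CPM in WT 1 and WT 2. Only 10 members were lower in both KO 3 than KO 4 and WT 1 than WT 2.

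The 10 members with heat shock protein parents (4 from Hspa8, 3 from Dnaja1, and 1 each from Hspd1, Hsp90ab1 and Hsp90aa1) were all lower in KO 3 than in KO 4. Of the other 313 members, 26 were. Between the wild-type libraries the median differences of copies and parents had opposite signs. Only 3 of the 10 copies were lower in WT 1 than in WT 2 (median difference 0.18), while the median of their parents, counted per member, was -0.41. Gm8355 had 36.4 and 68.4 CPM in KO 3 and KO 4, against 60.8 and 61.2 CPM in WT 1 and WT 2. Hspa8 had 3950 and 9148 CPM in KO 3 and KO 4, against 4996 and 7230 CPM in WT 1 and WT 2. KO 3 was the low library for both, while Hspa8 was lower in WT 1 than in WT 2 and Gm8355 was nearly equal in them. Gm6368, a copy of Hsp90ab1 (a cytosolic chaperone of signalling proteins) with 97.2% unique stretches, had 6.72 and 12.8 CPM in KO 3 and KO 4, against 14.5 and 8.64 CPM in WT 1 and WT 2. Hsp90ab1 had 1317 and 3489 CPM in KO 3 and KO 4, against 1849 and 2279 CPM in WT 1 and WT 2. The median KO 3 minus KO 4 difference of these 10 members was -0.70, and that of their parents, counted per member, was -1.07.

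The member difference minus the parent difference between KO 3 and KO 4 had a median of 0.35 in the 10 heat shock copies and of 0.43 in all 321 members with a parent. For WT 1 minus WT 2 these medians were 0.61 and 0.77. In both pairs of libraries this value was above 0 for all 10 heat shock copies. Across the 321 members, the KO 3 minus KO 4 differences of member and parent had a Pearson correlation of 0.59 and a Spearman correlation of 0.37. Without the heat shock copies these were 0.30 and 0.31 (n = 311). For WT 1 minus WT 2 they were 0.20 and 0.25.

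**Figure D4:**
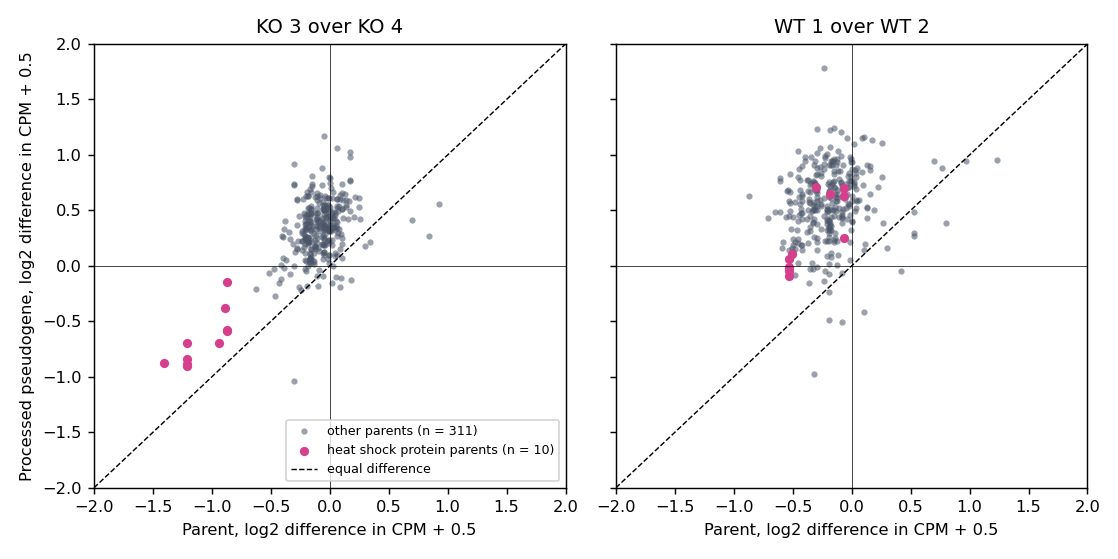
Log2 difference in CPM + 0.5 between libraries of one group, for each processed pseudogene (vertical) and its parent (horizontal), KO 3 over KO 4 on the left and WT 1 over WT 2 on the right. Most points lie above the dashed line of equal difference, and the 10 heat shock copies (pink) lie at the lower left for KO 3 over KO 4.

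No member passed the test of the genotype labels. With edgeR's quasi-likelihood test and an adjusted p of 0.05 over 14863 genes, 0 of 323 members were higher and 0 were lower in the knockout-labelled libraries, against 0.141% and 0.0135% of all genes tested. At an unadjusted p under 0.05 there were 4 higher, against 4.48% of all genes, and 1 lower, against 5.17% (1.55% in either direction, against 9.65%). DESeq2 and limma-voom also called 0 members. Both knockout-labelled libraries lay above both wild-type libraries in 30 members (9.29%, against 19.5% of all genes) and below them in 17 (5.26%, against 20.8%). The median log2 fold change of the members was -0.03, and that of all genes was -0.01. In 282 members (87.3%) the difference between WT 1 and WT 2 was larger than that between the groups, against 54.5% of all genes.

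Without WT 1 the median log2 fold change of the members was 0.31, with 286 of 323 above 0, and without WT 2 it was -0.29, with 45 above 0. Without KO 3 it was -0.25 and without KO 4 it was 0.12. Members were called in none of these fits. The parents' median was 0.23 with all libraries and lay between 0.15 and 0.35 in the same fits. With all libraries 168 of 196 parents were above 0, against 7238 of 14863 genes tested. No parent passed an adjusted p of 0.05 (edgeR). At an unadjusted p under 0.05, 36 of the 196 were higher and 1 was lower, against 4.48% and 5.17% of all genes tested.

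The members of largest positive log2 fold change were Gm10709 (0.73), Rpl35a-ps6 (0.70), Rpl21-ps15 (0.65), Gm7429 (0.56), Rps27a-ps2 (0.55) and Gm3699 (0.53), all copies of ribosomal protein genes. In 5 of these 6, both knockout-labelled libraries lay above both wild-type libraries, against 19.5% of all genes tested. The 6 were picked by their fold change in these same libraries, so this count is a description and not a finding. Single libraries decided some of these values. Rpl21-ps15 was 0.01 without KO 4, 1.06 without KO 3, 0.23 without WT 1 and 1.23 without WT 2, and Rps27a-ps2 was 0.29 without KO 3. Rpl35a-ps6 had 96.0 and 91.2 CPM in KO 3 and KO 4, against 47.4 and 67.6 CPM in WT 1 and WT 2, with a log2 fold change of 0.70 ± 0.21 (SE) and an adjusted p of 0.388 (edgeR). It had no unique stretch, and its parent Rpl35a had a log2 fold change of 0.43. Gm3699, a second copy of Rpl41, had 63.8 and 52.1 CPM in KO 3 and KO 4, against 42.05 and 38.04 CPM in WT 1 and WT 2. The groups did not overlap, and the log2 fold change of 0.53 ± 0.20 (SE) had an adjusted p of 0.487 (edgeR).

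The members of largest negative log2 fold change were Gm9755 (-0.79), Rps12-ps9 (-0.64), Gm6733 (-0.60), Gm10136 (-0.55), Rpl5-ps1 (-0.55) and Gm16580 (-0.53). In 3 of these 6, both knockout-labelled libraries lay below both wild-type libraries, against 20.8% of all genes tested. WT 1 was the highest library in 5 of the 6, against 23.4% of all genes tested. These 6 were also picked by their fold change in the same libraries. Without WT 1, Gm9755 was -0.38, and Gm6733, Rpl5-ps1 and Gm16580 were 0.02, 0.05 and 0.04. Gm10136 was -0.87 without KO 3 and -0.33 without KO 4. Gm9755, a copy of Tufm (the mitochondrial elongation factor Tu), had 6.28 and 5.95 CPM in KO 3 and KO 4, against 13.1 and 7.98 CPM in WT 1 and WT 2, with an adjusted p of 0.594 (edgeR). Rps12-ps9 had 19.7 and 16.2 CPM in KO 3 and KO 4, against 25.7 and 30.3 CPM in WT 1 and WT 2, with an adjusted p of 0.512 (edgeR). The groups did not overlap in Gm9755 or in Rps12-ps9. The parent Rps12 ran the other way, with 258 and 248 CPM in KO 3 and KO 4, against 163 and 187 CPM in WT 1 and WT 2.

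Across the 321 members with a parent, log2 fold changes of member and parent had a Spearman correlation of 0.51 and a Pearson correlation of 0.43, with the same sign in 167 of 321. Both values come from the same 4 libraries. Without WT 2 the Spearman correlation was 0.29, and without WT 1 it was 0.64. The difference between libraries, member minus parent, had a median of -0.26 for knockout-labelled minus wild-type libraries.

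**Figure D5:**
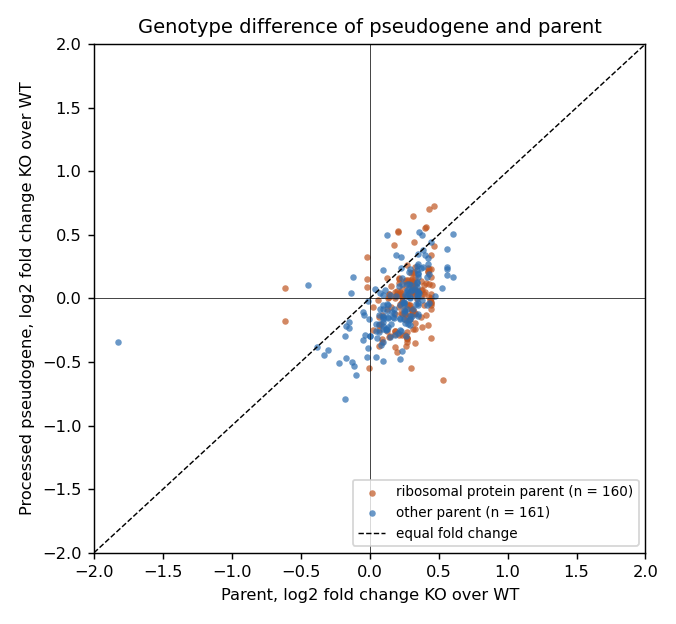
Log2 fold change of knockout-labelled over wild-type libraries for each processed pseudogene (vertical) and its parent (horizontal), for 160 ribosomal protein and 161 other parents. Parents lie mostly to the right of 0, and pseudogenes are spread around 0.

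Of the 323 members, 101 lay inside the body of another gene, 41 on its strand and 60 on the opposite strand. Gm11478 lies in Vmp1, which encodes an endoplasmic reticulum membrane protein of autophagy, on the same strand and outside its exons. In 69 cases the member had more CPM than the host gene, and 44 hosts were under 1 CPM. Gm10132, for example, lies in Enox1, which averaged 0.12 CPM. Across 65 members with a tested host, the log2 fold changes of member and host had a Spearman correlation of -0.24, and between libraries of one group it was -0.03 (KO 3 minus KO 4) and 0.13 (WT 1 minus WT 2, n = 57 each). With the nearest coding gene it was 0.05 (n = 176).

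Exons of other genes overlapped 10 members, 7 of them miRNA genes on the same strand. Gm4149 overlaps Mir682 over 96 bases, and counts over such a span cannot be told apart between a copy and the miRNA annotation. Gm7808 lies over its whole 387 bases within an exon of the olfactory receptor gene Olfr77 on the opposite strand, and that gene averaged 0.0043 CPM, with counts in WT 1 only. No member lay inside or overlapped an exon of any of the 23 genes called between the labels. The nearest coding gene was a called one for 2 members, Gm13443 (Stom, at 3433 bases) and Gm5529 (Serpine2, at 61356 bases). Their own log2 fold changes were -0.16 and -0.15.

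Just inside the count minimum, Gm5611 (Npm1) and Gm6733 (Srpr) each had 200 counts in their lowest library. Just outside, Rpl32-ps and Gm15483 (Rps13) had 196 and 198. No processed pseudogene outside the members passed the edgeR test among 1191 tested, with 8 at an unadjusted p under 0.05. DESeq2 called 4 of them. Gad1-ps had 56 and 101 counts in KO 3 and KO 4, against 1 and 0 in WT 1 and WT 2, and Gm4795 had 65 and 6, against 0 and 0. Gm6610 had 17 and 10 counts in KO 3 and KO 4, against 190 and 155 in WT 1 and WT 2, and Gm7805 had 22 and 14, against 30 and 441, so that WT 2 alone was high.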

How the data were processed

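The 4 libraries were made from ILC1s with a low-input SMARTer kit and sequenced, per the labels' protocols. The deposited values are raw counts per gene. The authors' tools were STAR (2.5.1a1) and featureCounts (1.4.6-p52) on mm10, per the submitters' processing notes, which also name DESeq2. The sources used here do not give strand, read length or the handling of multiply matching reads. The 276 repeated lines of 40757, each identical to its first, were collapsed. edgeR (4.0.16) was run with filterByExpr, TMM factors, genotype as the only term and Benjamini-Hochberg adjustment over 14863 genes, with 2 residual degrees of freedom, and was tested on simulated data. CPM used TMM-scaled library sizes. Alternatives were DESeq2 (1.42.0), limma (3.58.1) voom, other scalings and filters, and each library left out. Parents were found with blastn (2.17.0) against GENCODE M21 protein-coding transcripts by summed bit score, and 7 ties went to genes with an established name, then to the shorter transcript. The symbol or description in the table named a parent for 86 members, and 83 matched. Intervals cover counting error only.

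Members, families and marker lists were chosen with earlier results of these data known. Named genes were the 8 of highest CPM, the 6 of largest log2 fold change in each direction, the 5 highest and 3 lowest ratios to the parent, the 5 largest differences within a group, and any called, and some of these are not reported here. The heat shock copies, Gm12250, Gm6368, Gm8355 and further examples were chosen after their values were seen. Exon uniqueness was planned against a genome, and annotated transcripts were used instead.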

Additional observations from a re-analysis of the deposited data

How the results depend on the processing

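The count of members called was 0 in each direction under every alternative run with 2 libraries a group. Over all genes it was 23 of 14863 with the edgeR settings used, and 482 of the 40481 genes entered with DESeq2. It was 563 of 23999 without a filter on low counts, and 49 of 12163 with at least 50 counts in 2 libraries. The sample titles share no replicate numbers between groups, but the deposited column names number the libraries 1 and 2 in each. With that number as a replicate block, edgeR called 0 members higher, 0 members lower and 0 of all genes. The block leaves fewer residual degrees of freedom than the 2 of the fit without it. With the block 7 members had an unadjusted p under 0.05 (edgeR), against 5 without it. The share of all genes at that p was taken only without the block (9.65%), so the 7 have no such share beside them. Differences of KO 3 over KO 4 and WT 1 over WT 2 had a Pearson correlation of 0.12 across all 14863 genes. Across the 323 members it was 0.55, and across their 196 parents 0.60. These 2 pairs do not settle whether the numbers pair the libraries. Leaving out each library moved the log2 fold change of Gm6733 between -1.03 and 0.023, of Rpl5-ps1 between -1.11 and 0.054, and of Gm16580 between -0.93 and 0.039, each positive only without WT 1. Rpl21-ps15 lay between 0.01 and 1.23, Gm9755 between -1.10 and -0.38, and Rps27a-ps2 between 0.29 and 0.73. Gm10136 lay between -0.87 and -0.33, and Gm10736 between 0.32 and 0.75. The difference in the share of counts on the members lay between -0.266 and 0.235 percentage points, being 0.145 without KO 4 and 0.235 without WT 1. The Spearman correlation of member and parent level was 0.40 at 100 or more counts and 0.23 at 500 or more. That of member and parent fold change was 0.39 with the parent named in the table, 0.37 for KO 3 over KO 4, 0.25 for WT 1 over WT 2, and 0.29 to 0.64 with a library left out. That of member and host was -0.36 with hosts on the same strand (n = 29). With such hosts it was 0.24 for KO 3 over KO 4 and 0.16 for WT 1 over WT 2 (n = 26 each). With hosts on either strand it was -0.030 for KO 3 over KO 4 and 0.13 for WT 1 over WT 2 (n = 57 each). The cause was not tested. Alternatives for the differences within a group and the left-out libraries for the share were chosen after seeing the data, and the medians lay between 0.32 and 0.37 for KO 3 over KO 4 and between 0.55 and 0.63 for WT 1 over WT 2. With 2 libraries a group, a genotype difference smaller than the spread between libraries was not detectable.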
